A study of Mus musculus with 18 samples.

Results

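The 10 genes described here encode the machinery of MHC class II antigen presentation, and were taken by name from a table of 26327 genes counted in every library. They are H2-Aa, H2-Ab1 and H2-Eb1, which encode chains of the class II molecule, Cd74, H2-DMa, H2-DMb1, H2-Oa, H2-Ob, Ciita and Cd40. All 10 were in the table. They were followed across RNA from 3 populations sorted from the trachea of untreated mice: 7 brush cell libraries, 7 EpCAM+ libraries and 4 CD45+ libraries.

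All mice carried the transgene Tg(RP23-268L19-EGFP)2Mik on the B6.Cg background, which places eGFP under the control of the Chat locus, so the cells of all 3 groups came from animals that carry the reporter. The age of the mice is not stated in the labels. The brush cell gate took live cells without CD45 that carried both EpCAM and eGFP. The EpCAM+ gate took cells without CD45 that carried EpCAM, and as worded it does not leave out eGFP+ cells. The CD45+ gate took all hematopoietic cells of the digest, with no separation by class. The labels do not say whether libraries of a group stem from different mice, and a p-value here thus measures the spread between libraries, which may be technical.

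MHC class II molecules are pairs of an alpha and a beta chain that carry peptides from the endosome to the cell surface and show them to CD4+ T cells. The invariant chain, the product of Cd74, escorts the newly made pair to the endosome and blocks its groove. The H2-DM pair then removes what is left of the invariant chain and edits the bound peptide, and the H2-O pair holds H2-DM back. The co-activator CIITA, encoded by Ciita, switches these genes on together, and interferon gamma induces it in cells that are not professional antigen presenting cells. Dendritic cells, macrophages and B cells are the usual sources of class II in the airway, and lung epithelial cells, alveolar type 2 cells above all, are known to carry it as well.

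Of the 10 genes, 7 lie in the MHC on chromosome 17, between 34092340 and 34316674 of GRCm38, a stretch of 224.3 kb (GENCODE vM21). In order along the chromosome they are H2-Oa, H2-DMa, H2-DMb1, H2-Ob, H2-Ab1, H2-Aa and H2-Eb1, and only H2-Aa is on the minus strand. Ciita lies on chromosome 16 at 10480059 to 10528418 and Cd40 on chromosome 2 at 165055627 to 165072948. H2-DMb1 (34153072 to 34160230) has a close copy beside it, H2-DMb2 (34143307 to 34151555). Of the stretches of 50 bases in the longest H2-DMb1 transcript, 26.6% also occur in that of H2-DMb2, so the split of reads between this pair is uncertain.

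Class II promoters share the X box, bound by the RFX complex, and the Y box, bound by NF-Y, on which CIITA is recruited. The sequences below are from 4 members that were all lower outside CD45+ cells, and capitals mark the letters searched. In H2-Aa only the Y letters were found. They come from the RefSeq promoter table (GRCm38.p6, from 250 bases before to 50 after the gene start), which matched 6 members by symbol. The X letters were AGNAACNNA and the Y letters TGATTGG, searched on both strands. They were chosen after the sequences were seen, so that those members that hold them do so by construction.
H2-Eb1, chr17:34305763-34305824, plus strand: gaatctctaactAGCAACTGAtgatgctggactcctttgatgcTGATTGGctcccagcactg
H2-Ob, chr17:34238805-34238864, plus strand: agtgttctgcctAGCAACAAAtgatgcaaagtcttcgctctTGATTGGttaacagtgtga
H2-Oa, chr17:34092290-34092339, plus strand: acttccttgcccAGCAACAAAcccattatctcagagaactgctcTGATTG
H2-Aa, chr17:34287855-34287918, minus strand: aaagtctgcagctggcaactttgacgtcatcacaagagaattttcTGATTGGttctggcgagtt

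The stretch of H2-Oa stops 1 base short of the end of its Y letters, where the annotated gene begins. X followed by Y on one strand, at most 30 bases apart, occurred in the windows of H2-Eb1, H2-Ob, H2-Oa and H2-DMb1, with gaps of 22, 20, 23 and 23 bases. Among all 32851 promoter windows of this length the pair occurred in 21, or 0.0639%, while the X letters alone occurred in 16.9% and the Y letters alone in 7.82%. The window of H2-Aa held the Y letters but not the X letters, and neither of the H2-DMa windows held either. These shares describe how common the letters are and test nothing about the members, and a match of letters is not a measurement of binding.

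In CD45+ cells class II transcripts were among the most abundant of all. The 10 genes together took 2.88 to 5.76% of the counts of a CD45+ library. Levels between genes are compared as TPM (a level scaled by transcript length and by the library's total), as the authors deposited them. H2-Ab1 averaged 13603 ± 6908 TPM (SD, n = 4), H2-Aa 12200 ± 5859, H2-Eb1 8045 ± 3917 and Cd74 7092 ± 4606. By mean TPM they ranked 4th, 5th, 8th and 11th among 47164 gene symbols. H2-Ab1 exceeded H2-Aa in 3 of 4 libraries and H2-Eb1 exceeded Cd74 in 2 of 4, and the ranges of each neighbouring pair among these 4 genes overlapped.

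A wide step separated these 4 genes from the rest. H2-DMa averaged 587 ± 188 TPM and H2-DMb1 566 ± 289, with each the higher in 2 of 4 libraries. The H2-O genes came next, H2-Ob at 126 ± 122 and H2-Oa at 125 ± 62.0 TPM. Cd40, the receptor through which T cells activate antigen presenting cells, averaged 37.9 ± 21.9 TPM and Ciita 20.8 ± 10.3 TPM. Every library had more Cd40 than Ciita, but the ranges over libraries overlapped.

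Neither sorted epithelial population came near these levels. The 4 abundant genes summed to 0.00228 to 0.248% of the CD45+ mean in brush libraries and to 0.0170 to 0.156% of it in EpCAM+ libraries, in CPM (counts scaled to the library size corrected by TMM). All 10 genes were lower in brush cells than in CD45+ cells, where 22.4% of the 13418 genes tested were called lower and 23.4% higher. All 10 were also lower in EpCAM+ than in CD45+ cells, against 18.1% of genes called lower and 22.5% called higher. However, 8 of the 10 could be tested only because CD45+ cells express them, which favours a lower call. The shares of all genes are thus no fair yardstick for these 8, and the calls add little to the levels themselves. No library of either epithelial group overlapped a CD45+ library for any of the 10. The share of all genes tested that had no overlap was not counted. All 20 calls held under every alternative setting that was run. The median log2 fold change of the 10 was -9.81 in brush and -10.07 in EpCAM+ cells, both against CD45+ cells, beside medians of 0.05 and 0.08 over all genes tested. These 2 comparisons share their CD45+ libraries.

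**Figure D1:**
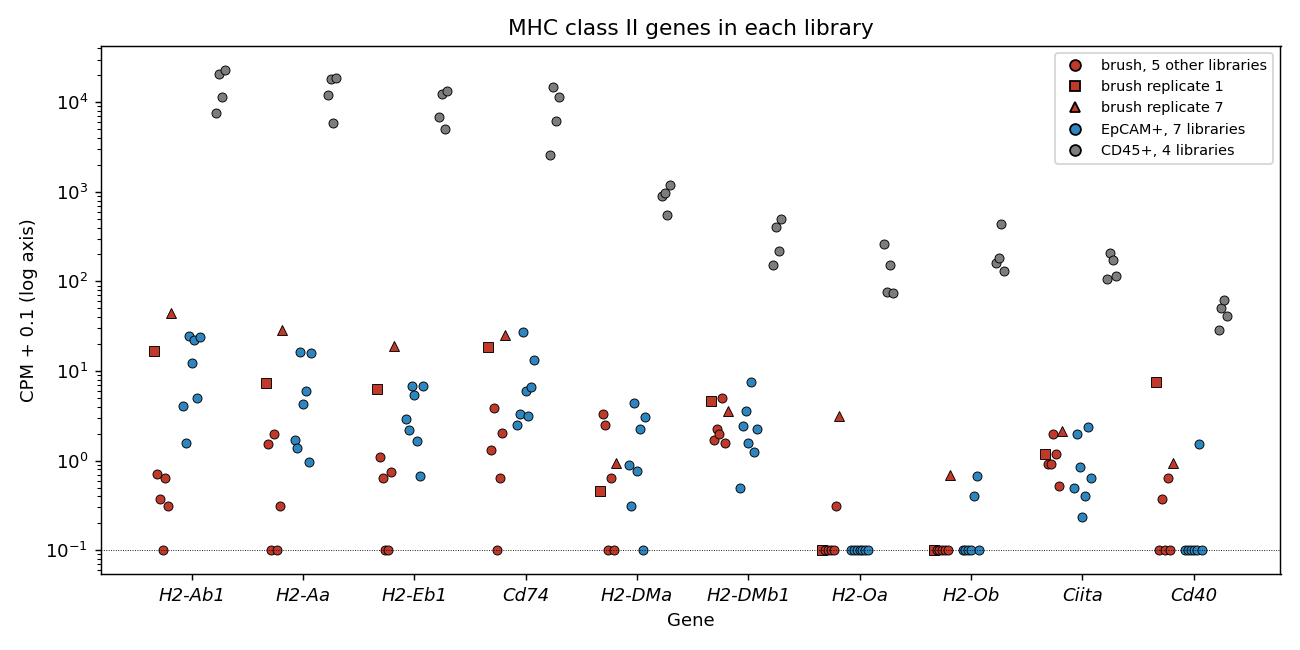
Level of each of the 10 class II genes in each library, as CPM + 0.1 on a log axis, where the dotted line marks a level of 0. CD45+ libraries (grey) lie above every brush (red) and EpCAM+ (blue) library for all 10 genes, and brush replicates 7 (triangle) and 1 (square) lie above the other 5 brush libraries for H2-Ab1, H2-Aa, H2-Eb1 and Cd74.

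In bulk libraries fewer cells that express a gene and less RNA per cell cannot be told apart. The filter on low counts kept all 10 genes, but only H2-Ab1 and Cd74 pass it on brush and EpCAM+ libraries alone, and the other 8 are tested because CD45+ cells express them. Between brush and EpCAM+ cells 2 of the 10 genes were called higher in brush, H2-Oa and Cd40, and none was lower by edgeR's quasi-likelihood test, also at an unadjusted p under 0.05, or by DESeq2 or voom, against 18.3% and 22.0% of all genes tested. For all 10 genes brush and EpCAM+ libraries overlapped, and the share of all genes tested that did so was not counted.

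The H2-Ab1 beta chain shows how class II transcripts were spread over the libraries. In CD45+ replicates 1 to 4 its level was 7592, 20418, 11491 and 22944 CPM. Brush replicate 7 had 44.2 CPM and replicate 1 had 16.8 CPM, while the other 5 brush libraries had between 0 and 0.606 CPM. All EpCAM+ libraries held it, with a lowest level of 1.48, a median of 12.2 and a highest of 24.3 CPM. It was 10.63 ± 1.27 (SE) lower on the log2 scale in brush than in CD45+ cells and 10.20 ± 1.25 lower in EpCAM+ cells (adjusted p = 2.81e-07 and 4.59e-07). Without brush replicate 7 the brush difference was -12.00. Its difference between brush and EpCAM+ cells was -0.43 ± 0.86 (adjusted p = 0.728), with a 95% interval of -2.11 to 1.25. Over the alternatives run, this difference ranged from -2.02 to -0.055 and was never called. The 5 brush libraries other than replicates 7 and 1 lay below every EpCAM+ library.

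H2-Aa, the alpha chain that pairs with H2-Ab1, was spread in the same uneven way. Its CD45+ levels were 12109, 18082, 5896 and 18472 CPM in replicates 1 to 4. Brush replicates 7 and 1 had 28.9 and 7.23 CPM and the other 5 had 0 to 1.88 CPM. EpCAM+ libraries ranged from 0.862 to 16.3 CPM with a median of 4.16, and none was at 0. The log2 difference from CD45+ cells was -11.07 ± 1.24 in brush (-12.69 without replicate 7) and -11.00 ± 1.24 in EpCAM+ cells, and that between brush and EpCAM+ cells was -0.07 ± 0.85 (95% interval -1.74 to 1.60).

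H2-Eb1, the other beta chain, had 6809, 12438, 5066 and 13411 CPM in CD45+ replicates 1 to 4. In brush cells replicate 7 had 19.1 and replicate 1 had 6.15 CPM, and the rest had 0 to 1.01 CPM. EpCAM+ libraries had 0.575 to 6.72 CPM. It differed from CD45+ cells by -11.00 ± 1.02 in brush (-12.33 without replicate 7) and -11.29 ± 1.03 in EpCAM+ cells, and by 0.29 ± 0.71 between brush and EpCAM+ cells (95% interval -1.11 to 1.69), on the log2 scale.

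Cd74, the invariant chain, was counted in 6 of 7 brush libraries and in all EpCAM+ libraries. CD45+ replicates 1 to 4 had 2607, 14981, 6101 and 11474 CPM, so replicate 1 was low for the invariant chain although it was not the lowest for H2-Aa or H2-Eb1. Brush replicates 7 and 1 had 25.3 and 18.3 CPM and the others 0 to 3.78 CPM. The median EpCAM+ library had 5.91 CPM and the highest 26.8 CPM. Cd74 lies outside the MHC. The log2 differences were -10.09 ± 1.02 for brush (-10.75 without replicate 7) and -9.95 ± 1.01 for EpCAM+ cells (-10.57 without replicate 3) against CD45+ cells, and -0.14 ± 0.71 between brush and EpCAM+ cells (95% interval -1.52 to 1.25).

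The peptide editor H2-DM followed a different pattern in brush cells. H2-DMb1 was counted in all 7 brush libraries, at 1.49 to 4.88 CPM, and in all 7 EpCAM+ libraries, at 0.400 to 7.38 CPM, against 152 to 495 CPM in CD45+ cells. Brush replicates 7 (3.44 CPM) and 1 (4.52 CPM) lay within the range of the other brush libraries. In counts these 2 deepest brush libraries held 29 and 25 of 87 for H2-DMb1, with 33 in the other 5. The gap to CD45+ cells was smaller than for the chains, at -6.78 ± 0.52 in brush and -6.92 ± 0.52 in EpCAM+ cells on the log2 scale. Its partner H2-DMa was highest in brush replicates 2 and 3, at 3.23 and 2.43 CPM, and 0 in replicates 4 and 6. H2-DMa ranged from 0 to 4.26 CPM in EpCAM+ and from 546 to 1197 CPM in CD45+ cells, with log2 differences of -9.53 ± 0.79 and -9.12 ± 0.77 from CD45+ cells. Between brush and EpCAM+ cells H2-DMa differed by -0.42 ± 0.69 and H2-DMb1 by 0.14 ± 0.46, and neither passed the test.

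The H2-O pair, the inhibitor of H2-DM, was close to 0 outside CD45+ cells. H2-Oa had 261, 76.0, 151 and 74.4 CPM in CD45+ replicates 1 to 4. It had 27 counts over the brush libraries, 26 of them in replicate 7, and 0 in 29907253 EpCAM+ counts, which allows up to 0.0983 CPM. Against that limit of 3 counts over the group it was at least 1207-fold lower in EpCAM+ than in CD45+ cells and at least 9.25-fold lower than in brush cells. The call between brush and EpCAM+ cells (adjusted p = 0.0198 with edgeR) thus rested on 1 library. Leaving out brush replicate 7 ended it (adjusted p = 0.32), and DESeq2 (0.114) and voom (0.155) did not make it. H2-Ob had 161, 184, 437 and 132 CPM in CD45+ replicates 1 to 4, 5 counts in brush cells, all in replicate 7, and 3 counts in EpCAM+ cells. The CD45+ to EpCAM+ ratio of H2-Ob was 3097 (counting interval 1059 to 15024). CD45+ replicate 3 held 4006 of the 5323 CD45+ counts, and the ratio was 1610 without it and 8233 without EpCAM+ replicate 6, which held 2 of the 3 EpCAM+ counts.

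Ciita, the co-activator, was low, with at least 1 count in every library of the count table. It had 0.425 to 2.02 CPM in brush, 0.134 to 2.30 CPM in EpCAM+ and 106 to 207 CPM in CD45+ libraries. These brush levels rest on 35 counts over 7 libraries, of which replicate 7 held 17 and replicate 1 held 6. Its log2 difference from CD45+ cells was -7.04 ± 0.49 in brush and -7.36 ± 0.49 in EpCAM+ cells, and it differed by 0.32 ± 0.50 between brush and EpCAM+ cells (95% interval -0.67 to 1.31). In RSEM's estimates, which are per length, brush and EpCAM+ cells averaged 0.08 and 0.0686 TPM, with brush replicates 1, 3, 4 and 6 and EpCAM+ replicates 1 and 4 listed at 0.

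Cd40 differed between brush and CD45+ cells by a log2 fold change of -4.88 ± 0.85 (adjusted p = 4.42e-05), or -6.93 without brush replicate 1. Its CD45+ levels were 28.7, 50.7, 62.0 and 41.3 CPM in replicates 1 to 4. Brush replicate 1 had 7.41 CPM, which is 41 of the 50 brush counts, replicate 7 had 0.830, and the other 5 had 0 to 0.542 CPM. In EpCAM+ cells all 5 counts were in replicate 6, and the log2 difference from CD45+ cells was -7.85 ± 1.04, or -10.67 without that replicate. The call of 2.97 ± 1.08 between brush and EpCAM+ cells (adjusted p = 0.0314 with edgeR) did not hold when brush replicate 1 was left out (adjusted p = 0.528) or any 1 of EpCAM+ replicates 2, 3, 4 and 7 (0.0554 to 0.0723). DESeq2 (0.147) and voom (0.101) did not make it either. Without EpCAM+ replicate 6, which held all EpCAM+ counts, the difference was 5.78.

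**Figure D2:**
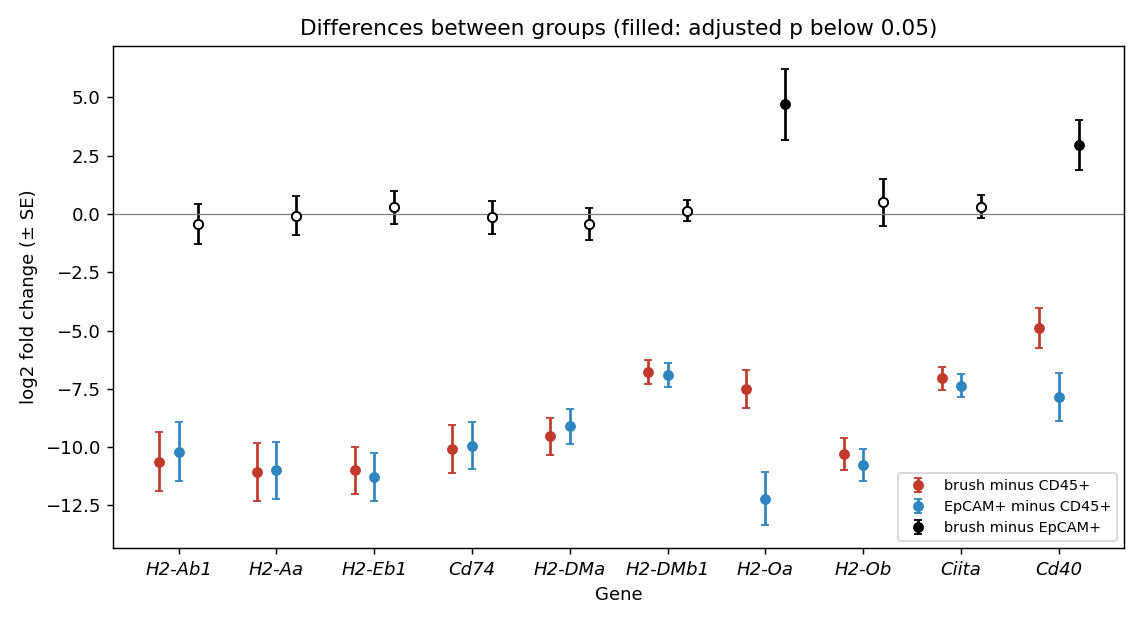
Log2 fold changes of the 10 genes with their standard errors from the fit of all 18 libraries, with filled points for an adjusted p below 0.05 and open points for values that missed it. Both comparisons with CD45+ cells lie between -4.88 and -12.22. Of the 10 differences between brush and EpCAM+ cells, 8 are open points between -0.43 and 0.50. The EpCAM+ points of H2-Oa and its brush minus EpCAM+ point rest on a group at 0 counts, so their heights depend on the fit's prior count.

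In brush cells the class II chains and Cd74 sat in 2 of 7 libraries. The 10 genes summed to 128 CPM in brush replicate 7 and 61.8 CPM in replicate 1, and to 5.10 to 10.3 CPM in the other 5. Outside replicates 1 and 7, brush libraries held 6 of 472 H2-Ab1 counts, 9 of 293 H2-Aa counts, 10 of 205 H2-Eb1 counts and 30 of 344 Cd74 counts. Replicates 7 and 1 were the deepest brush libraries, with 6031711 and 4494556 counts. Replicate 2 had 4184599 counts and 3 of H2-Ab1.

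Summed pan-leukocyte markers differed between these libraries, mostly through Ptprc, which encodes CD45. The 6 markers summed to 14.7 CPM in replicate 7, the lowest brush library, and to 39.6 CPM in replicate 1, the highest. Replicate 4 was at 39.5 CPM. Ptprc made up 10.2, 31.3 and 24.4 CPM of these 3 sums. The other 5 markers did not share this order, with Laptm5 lowest in replicate 2 (0.808 CPM) and highest in replicate 4 (9.40 CPM). Ptprc was counted in all 7 brush libraries, with 86 counts in replicate 7 and 173 in replicate 1, against 1 count over all EpCAM+ libraries. The 14 macrophage and monocyte markers, all with counts in brush cells, summed to 50.4 to 106 CPM there. Of these, 5 were called higher and 4 lower in brush than in EpCAM+ cells, against 18.3% and 22.0% of all genes. C1qa, C1qb and C1qc, among the higher, had 71, 45 and 31 counts in brush cells and 0 in EpCAM+ cells. Mertk and Ccr2 were among the lower, and the call of Ccr2 was lost in 7 of 27 alternatives. C1qa had 1.27 CPM in replicate 1 and 2.85 in replicate 7, and was highest in replicate 5 (4.88 CPM). Of the 11 dendritic cell markers 6 were at 0 in brush cells, namely Flt3, Xcr1, Clec9a, Cd209a, Clec10a and Cd207, and the list summed to 9.04 CPM in replicate 1, 3.68 CPM in replicate 7 and 1.82 to 11.3 CPM over all 7 libraries. Of the 10 B cell markers 5 were at 0, among them Ms4a1, Cd79a, Pax5 and Blk, and the list summed to 21.6 to 73.3 CPM, of which Cd79b and Ebf1 held most. Of the 10 T, NK and innate lymphoid markers 5 were at 0 and the list summed to 0 to 2.17 CPM.

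A few other genes of the lists, all with low counts, were counted mainly in brush replicate 7. It held 20 of 22 brush counts of H2-DMb2, all 5 of H2-Eb2 and all 5 of Irf4. It also held all 3 of Pdcd1lg2, 7 of 8 of Cd80 and all 4 of the dendritic cell homing receptor Ccr7. Ccr7 is 1 of the 11 dendritic cell markers, whose sum in replicate 7 (3.68 CPM) lay below the brush median (4.34 CPM). Traf1, a signalling adaptor below CD40, was high in both replicates, with 35 counts in replicate 7 and 21 in replicate 1 of 66 in all. These genes were singled out after their values were seen. Whether cells of another type contributed to the class II counts of replicates 1 and 7 was not tested.

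**Figure D3:**
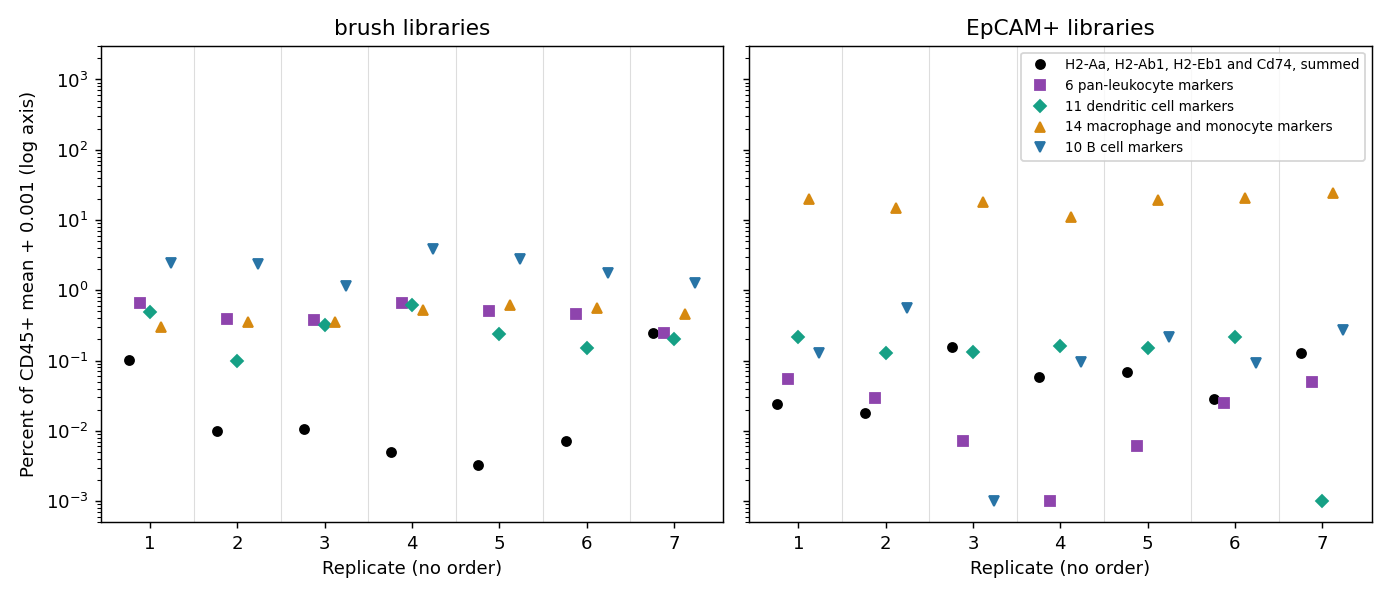
Summed CPM of the 4 abundant class II genes (black circles) and of 4 leukocyte marker lists in each brush (left) and EpCAM+ (right) library, as a percent of the CD45+ mean + 0.001 on a log axis. The class II sum spans 0.00228 to 0.248% over brush libraries, with replicates 7 and 1 on top. The pan-leukocyte sum of brush libraries, made up mostly of Ptprc, is lowest in replicate 7. The high macrophage and monocyte sum of EpCAM+ libraries rests on Lyz2 and Cd14.

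In EpCAM+ cells class II transcripts were spread over all libraries, but unevenly. The 10 genes summed to 82.6 CPM in replicate 3, 65.3 in replicate 7, 42.4 in replicate 5 and 29.8 in replicate 4, and to 18.4, 12.5 and 12.4 CPM in replicates 6, 2 and 1. H2-Aa, H2-Ab1 and Cd74 were each highest in replicate 3. Pan-leukocyte markers were near 0 here, with a sum of at most 3.20 CPM. Of the dendritic cell markers Flt3 and Cd209a were at 0, of the macrophage markers C1qa, C1qb, C1qc and Fcgr1, and of the B cell markers Ms4a1, Pax5 and Cd37 among others. Counts were found for 9 of 11 dendritic cell, 10 of 14 macrophage and monocyte and 6 of 10 B cell markers. The T, NK and innate lymphoid list had counts for 8 of 10. The dendritic cell list summed to 0 to 4.02 CPM and the B cell list to 0 to 10.4 CPM. The lymphoid sum was highest in replicate 7 (6.72 CPM), where the dendritic cell sum was 0. The macrophage and monocyte list summed to 1885 to 4079 CPM in EpCAM+ cells through Lyz2 and Cd14, which airway and alveolar epithelial cells also express.

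The genes whose levels followed class II most closely over the 7 EpCAM+ libraries included genes of alveolar type 2 cells, the surfactant-producing cells of the lung. Likeness was measured as Pearson's r with the mean of the standardised log2 CPM of H2-Aa, H2-Ab1, H2-Eb1 and Cd74, over 9920 genes, as a description of 7 libraries that also differ in depth. The 8 genes most alike were Napsa (r = 0.913), Ptgfrn (0.910), Sftpb (0.908), Slc34a2 (0.895), Phf12 (0.886), Rabl2 (0.870), Dtwd1 (0.870) and Ahsa2 (0.864). Napsa encodes the protease napsin A, Sftpb surfactant protein B and Slc34a2 a phosphate transporter, all made by alveolar type 2 cells.

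A list of 9 alveolar type 2 genes was therefore read out, chosen after these values were seen. Sftpc, which encodes surfactant protein C and marks these cells, had 1508, 1192, 1016, 369 and 248 CPM in EpCAM+ replicates 3, 7, 5, 4 and 6, and 0.424 and 0 CPM in replicates 2 and 1. The sums over H2-Aa, H2-Ab1, H2-Eb1 and Cd74 had this order too, except that replicate 1 (10.8 CPM) lay above replicate 2 (8.05 CPM). Slc34a2 had 79.6 and 50.3 CPM in replicates 3 and 7 and 2.75 to 14.4 CPM in the other 5, with 4.61 CPM in replicate 5. Lamp3, a lysosomal membrane protein, had 16.3, 6.72 and 3.90 CPM in replicates 3, 7 and 4 and at most 0.862 elsewhere. Other genes of the list did not follow the class II order. Sftpa1 was highest in replicate 5, at 597 CPM, against 479 in replicate 3 and 328 in replicate 7. Cxcl15 was highest in replicates 3 and 7, at 53.1 and 37.4 CPM, but replicate 5 (7.38 CPM) lay below replicates 6 (10.6) and 1 (9.99). Sftpd was at 143 to 281 CPM over the EpCAM+ libraries, and Abca3 was at 11.4 to 37.9 CPM there and at 130 to 222 CPM in brush libraries. Napsa was not restricted to epithelial cells, with 227 to 580 CPM in CD45+ libraries.

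Brush replicates 7 and 1, the brush libraries with the highest class II sums, had 1 and 0 counts of Sftpc and 1 and 4 of Slc34a2. EpCAM+ replicate 1, the EpCAM+ library with 0 counts of Sftpc, had 10 counts of H2-Ab1, 7 of H2-Eb1 and 6 of Cd74. It also had 128 counts of Sftpa1 and 20 of Slc34a2. The part of alveolar type 2 cells in the EpCAM+ class II level was not tested.

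**Figure D4:**
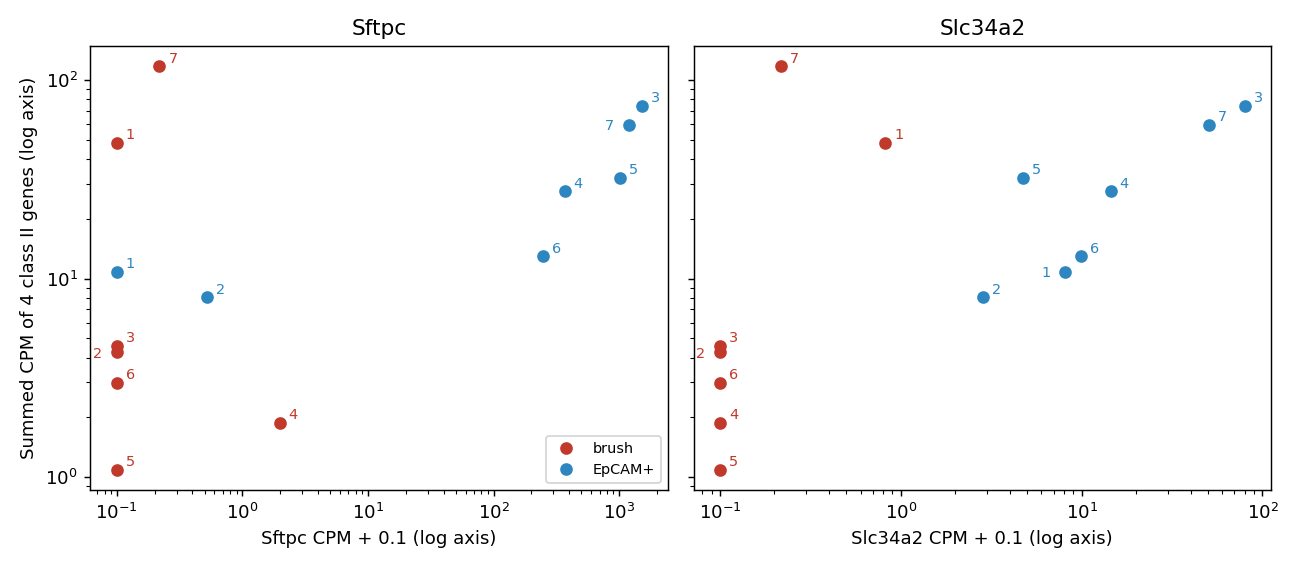
Summed CPM of H2-Aa, H2-Ab1, H2-Eb1 and Cd74 against the CPM + 0.1 of Sftpc (left) and Slc34a2 (right), both on log axes, for brush (red) and EpCAM+ (blue) libraries labelled by replicate. EpCAM+ replicates 3 and 7 are the highest EpCAM+ libraries on each axis, and brush replicates 7 and 1 have high class II sums with 1 and 0 counts of Sftpc.

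The 4 CD45+ libraries differed in the make-up of their class II transcripts. The ratio of H2-Aa to H2-Ab1 in TPM was 1.72, 0.968, 0.565 and 0.882 in replicates 1 to 4, and that of H2-Oa to H2-Ob in CPM was 1.62, 0.413, 0.345 and 0.565. Replicate 3 had the highest H2-Ob (437 CPM), the highest summed B cell markers (2991 CPM, against 732 to 1920 in the others) and the lowest H2-Aa and H2-Eb1. H2-O is best known from B cells and some dendritic cells. H2-Oa, its other chain, was highest in replicate 1, at 261 CPM, where the B cell markers summed to 1838 CPM. Replicates 2 and 4 had the highest H2-Ab1 and H2-Aa, and the highest macrophage and monocyte markers, at 23127 and 27960 CPM against 9984 and 7342 in replicates 1 and 3. The dendritic cell markers did not share this order. They summed to 493, 2115, 2542 and 2259 CPM in replicates 1 to 4, and were thus highest in replicate 3. Replicate 1 had only 371652 counts and the lowest Cd74. What part the mix of cell types had in these ratios was not tested.

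Over all 18 libraries the genes most like the class II pattern were Dpp4 (r = 0.969), Slamf7 (0.967), H2-DMb2 (0.966), Ncf4 (0.966), Plxnc1 (0.963), Icam2 (0.963), Itga4 (0.961) and Il1b (0.961), among 10826 genes. CD45+ libraries set most of the range of these genes. Il1b, which encodes the cytokine interleukin 1 beta, averaged 2126 CPM in CD45+, 0.130 CPM in EpCAM+ and 0 CPM in brush cells.

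The transcription factors that bind class II promoters mostly passed no test. Of 7 listed and tested, 2 were lower in brush and 1 in EpCAM+ cells than in CD45+ cells, and the list's median log2 fold change was -0.36 and 0.00. Nfya, a subunit of NF-Y, was the one lower in both (-1.51 ± 0.45 and -2.04 ± 0.45), and Creb1 was lower in brush (-0.75 ± 0.30, adjusted p = 0.043), a call lost in 14 of the alternatives run (adjusted p up to 0.123). Rfxank, a subunit of the RFX complex, had 16.9, 14.3 and 21.1 CPM in brush, EpCAM+ and CD45+ cells, and was not called in any comparison. Rfx5, its DNA-binding subunit, averaged 5.68, 3.09 and 1.99 CPM in the same order, also with no call. Rfxap, the remaining subunit, was lower in brush than in EpCAM+ cells (-1.17 ± 0.46, adjusted p = 0.0454), again lost in 14 of the alternatives (adjusted p up to 0.0907).

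A list of interferon gamma signalling genes and of transcription factors that act on Ciita in leukocytes was mostly lower outside CD45+ cells. Of 11 tested 10 were lower in brush cells (22.4% of all genes) and 9 in EpCAM+ cells (18.1%), with median log2 fold changes of -1.84 and -2.21. Passing the filter only through CD45+ cells favours a lower call, as for 8 of the members. How many genes of this list and of those below pass in this way was not counted. The shares of all genes are thus no fair yardstick for their calls against CD45+ cells. Irf4 and Spi1, transcription factors of leukocytes, were furthest down. In brush cells their log2 differences were -8.93 ± 0.58 and -8.68 ± 0.62, and in EpCAM+ cells each had 1 count, for CD45+ to EpCAM+ ratios of 2758 (494 to 109007) and 3208 (575 to 126796). Without brush replicate 7 the brush difference of Irf4 was -11.48, and without brush replicate 3 that of Spi1 was -9.36. The EpCAM+ counts lay in replicates 6 (Irf4) and 2 (Spi1), without which the ratios become lower bounds of 815 and 904. Among the other calls, those of Jak2 and Socs1 in brush cells were lost in 8 and 3 alternatives (adjusted p up to 0.146 and 0.0917), and that of Irf2 in EpCAM+ cells in 2 (up to 0.0652). Brush cells had more Irf8, a factor of myeloid and B cells, than EpCAM+ cells, 18.1 ± 2.59 against 3.04 ± 1.10 CPM (SD, n = 7 each), with no overlap (2.57 ± 0.27, adjusted p = 6.1e-08). The kinase Jak2 (1.23 ± 0.36) was also higher in brush cells, while the receptor chain Ifngr1 was lower (-1.97 ± 0.41). Counted over the list, 3 of 11 genes were higher and 1 lower in brush than in EpCAM+ cells, against 18.3% and 22.0% of all genes.

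Proteases and membrane proteins of the endolysosome, where peptides are cut and loaded, were lower in brush than in CD45+ cells for 10 of 13 genes and in EpCAM+ cells for 9 of 13, against 22.4% and 18.1% of all genes. The call of Sppl2a in EpCAM+ cells was lost in 20 of 28 alternatives (adjusted p up to 0.273), and that of Lamp2 in brush cells in 4 (up to 0.156). Ctss, the cathepsin that trims the invariant chain in antigen presenting cells, had the largest gap, at 2.36 CPM in brush, 0.532 in EpCAM+ and 1963 in CD45+ cells (-9.72 ± 0.70 and -11.83 ± 0.77, the latter -12.42 without EpCAM+ replicate 2). Its counterpart in other cells, Ctsl, was the one gene of the list higher in EpCAM+ than in CD45+ cells (2.44 ± 0.37), and in brush cells it differed from CD45+ cells by 0.12 ± 0.33. Between brush and EpCAM+ cells 2 of 13 were higher, Ctss (2.11 ± 0.66, or 2.70 without EpCAM+ replicate 2, and not with voom, adjusted p = 0.0759) and the endopeptidase Lgmn (1.37 ± 0.45), and 5 were lower, against 18.3% and 22.0% of all genes. Of the 5, Tfeb was lost in 17 of 28 alternatives (adjusted p up to 0.0891). The lower ones included Ctsh (-3.90 ± 0.40), Ctsz (-2.59 ± 0.38) and Ctsl (-2.32 ± 0.29). Lgmn was named as one of a count of 2 after its values were seen. Ctsh also fell from CD45+ to brush cells (-5.76 ± 0.45), as did Ctsz (-5.39 ± 0.44), and Lgmn differed by -4.61 ± 0.53 between EpCAM+ and CD45+ cells (-3.96 without CD45+ replicate 4).

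Genes of class II turnover split. March1, the ubiquitin ligase that removes class II from the surface of dendritic and B cells, was lower in brush (-6.11 ± 0.77) and EpCAM+ cells (-8.23 ± 0.88) than in CD45+ cells. Of 33 brush counts of March1 26 were in replicate 2, without which the difference was -7.94, and without EpCAM+ replicate 5 that of EpCAM+ cells was -9.63. Its relative March8 was higher in brush than in CD45+ cells (3.06 ± 0.43) and in EpCAM+ than in CD45+ cells (1.33 ± 0.40), and higher in brush than in EpCAM+ cells (31.9 to 55.5 against 5.84 to 19.3 CPM over 7 libraries each, 1.73 ± 0.31). Cd83, which opposes March1, averaged 4323 CPM in CD45+ cells and 1.60 and 0.310 CPM in brush and EpCAM+ cells. The brush to EpCAM+ difference of Cd83 (2.21 ± 0.75, adjusted p = 0.0221) was lost without brush replicate 6 (0.0788) or EpCAM+ replicate 4 (0.052), and was 3.56 without EpCAM+ replicate 3.

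Of the ligands that T cells read beside class II, 9 were tested, of which 1 was higher and 6 were lower in brush than in EpCAM+ cells, against 18.3% and 22.0% of all genes. Of the 6, Cd276 was lost in 13 of 26 alternatives (adjusted p up to 0.269) and Tnfsf9 in 6 of 28 (up to 0.0717). Cd274, which encodes the inhibitory ligand PD-L1, was the higher one, at 21.2 ± 6.15 against 1.59 ± 0.857 CPM with no overlap (3.74 ± 0.39, adjusted p = 5.95e-08). Icam1, the adhesion ligand of T cells, was lower (13.2 against 641 CPM, -5.56 ± 0.60, or -6.19 without brush replicate 1), as were Vtcn1, an inhibitory B7 relative (-4.76 ± 0.43), and Icosl, the ligand of ICOS (-3.29 ± 0.53). Against CD45+ cells 7 of 9 were lower and 1 higher in brush cells (22.4% and 23.4% of all genes), and 6 lower and 1 higher in EpCAM+ cells (18.1% and 22.5%). Cd86, a ligand of CD28, had 7 counts in brush and 0 in EpCAM+ cells, where it was at least 1630-fold lower than in CD45+ cells. Vtcn1 was the higher one in both, with 0 counts in CD45+ cells, at least 133-fold higher in EpCAM+ and at least 5.30-fold higher in brush cells, or 63.5-fold and 2.52-fold without CD45+ replicate 3, and it was named for brush cells after its values were seen.

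Below CD40, 5 of 9 genes tested were lower in brush and 7 in EpCAM+ cells than in CD45+ cells, against 22.4% and 18.1% of all genes. Of the 7, Traf3 was lost in 4 of 28 alternatives (adjusted p up to 0.123). Traf1 had the largest gap (-6.23 ± 0.78 and -7.27 ± 0.82, the latter -8.14 without EpCAM+ replicate 3), followed in brush cells by Traf5 (-3.84 ± 0.53) and the NF-kappaB subunit Nfkb2 (-2.96 ± 0.37). Between brush and EpCAM+ cells Traf5 (-1.55 ± 0.48) and Relb (-0.97 ± 0.33) were lower in brush cells. The call of Traf5 was lost with voom (adjusted p = 0.0828), and that of Relb without brush replicate 6 (0.0562) or EpCAM+ replicate 3 (0.0503). Over all 54 tested genes of the 7 lists, 8 were higher and 15 lower in brush than in EpCAM+ cells (18.3% and 22.0% of all genes), with a median log2 fold change of -0.03 beside -0.06 over all genes tested.

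**Figure D5:**
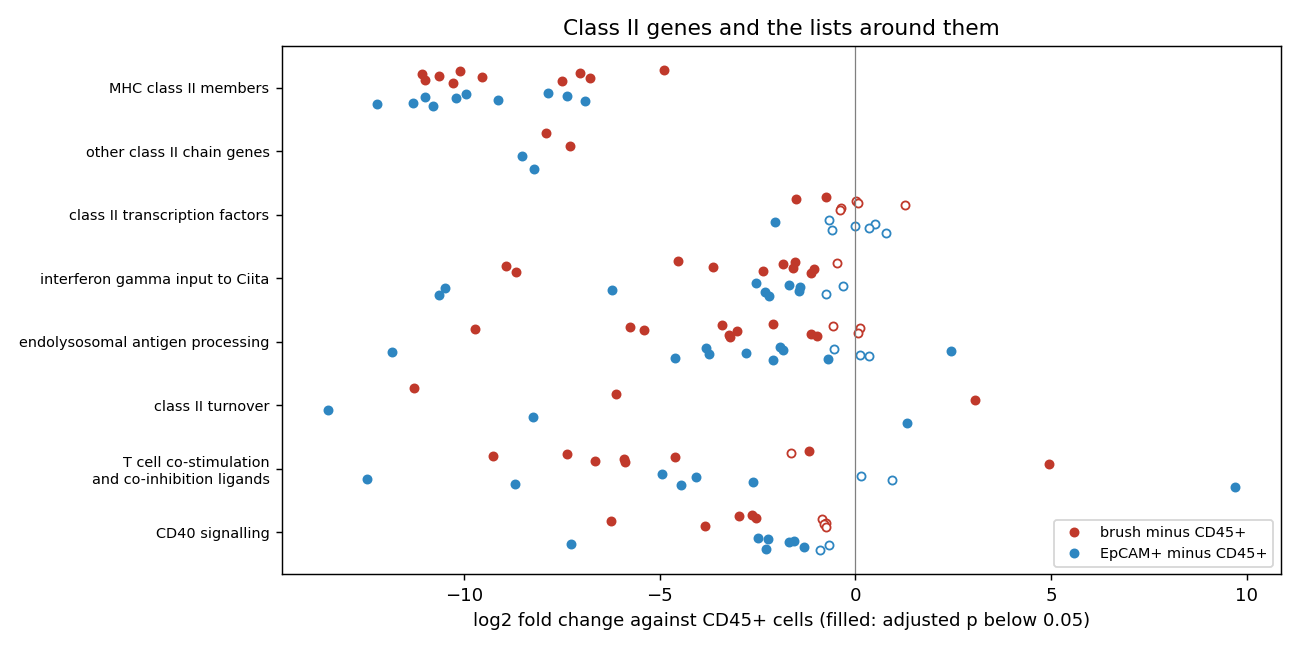
Log2 fold change against CD45+ cells of each gene of the class II members and of the 7 lists around them, for brush (red) and EpCAM+ (blue) cells, with filled points for an adjusted p below 0.05. All 10 members lie below -4.8 in both, while 5 of 7 transcription factors in brush and 6 of 7 in EpCAM+ cells are open points. Points of genes with 0 counts in a group, such as Vtcn1, depend on the fit's prior count.

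The brush libraries held 838328 to 6031711 counts each, the EpCAM+ libraries 2442601 to 6087184 and the CD45+ libraries 371652 to 7438791, and ribosomal RNA genes took 8.76 to 60.9% of them. Brush replicate 4, EpCAM+ replicate 5 and CD45+ replicate 1 stood apart from their groups. Marker genes were checked against the labels. The 6 brush cell markers were each called higher in brush than in EpCAM+ and in CD45+ cells, the 6 pan-leukocyte markers summed to 5498 to 6483 CPM in CD45+ cells, and basal, club and ciliated cell markers were present in EpCAM+ cells.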

How the data were processed

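RNA sequencing counts were read for 18 libraries: 7 brush, 7 EpCAM+ and 4 CD45+. The authors deposited unnormalized counts for 26327 gene symbols. They also deposited, per the file headers, RSEM expected counts and TPM per gene. The submitters' processing notes name STAR 2.4.2a, RSEM 1.2.21, featureCounts and DESeq2 with build mm10, and no source used here gives the counting annotation or whether strand was used.

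All 18 libraries entered 1 fit by edgeR 4.0.16 (R 4.3.3) with group as the only term, TMM scaling and low genes removed per group by filterByExpr, which kept 13418 genes. Its quasi-likelihood F test was adjusted by Benjamini-Hochberg over all genes tested, and a gene was called below 0.05. Standard errors are the absolute log2 fold change over the square root of F, and 95% intervals are 1.96 standard errors on each side. Levels are CPM on TMM library sizes. Ratios with 3 counts or fewer in a group carry a 95% exact counting interval, which covers counting error only. The fit was tested on simulated data.

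The members, the lists and the rule for named genes were chosen with earlier results of these data known. The rule names all 10 members, up to 4 called genes with the largest change per list and comparison, and the 8 genes most like the class II pattern with a mean of at least 5 CPM. List genes named outside this rule, such as those whose call was lost, were chosen after their values were seen. Some genes of the lists are not reported by name here. Alternatives were the size factors of DESeq2 1.42.0 in the edgeR fit, no filter, a minimum of 10 CPM, DESeq2, voom (limma 3.58.1), only the 2 groups compared, a replicate block, rounded RSEM expected counts, no ribosomal RNA genes, and leaving out libraries.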

Additional observations from a re-analysis of the deposited data

Results flagged for a closer look

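In groups of this size a library was singled out when its gap to the nearest other library exceeded Dixon's 95% critical share of the group's range. Of 30 checks, 10 genes in 3 groups, 7 met this. The critical share stands for 1 in 20 only where values are normally spread. Many of these levels lie near the floor, so the number to be met by chance is not known here. For H2-Ob in brush and Cd40 in EpCAM+ cells, 1 library held all 5 counts, which meets the rule by itself. Brush replicate 7 stood above the other brush libraries for H2-Aa (28.9 CPM), H2-Ab1 (44.2 CPM), H2-Eb1 (19.1 CPM), H2-Oa (3.08 CPM) and H2-Ob (0.593 CPM). Brush replicate 1 stood above them for Cd40 (7.41 CPM), and EpCAM+ replicate 6 above the other EpCAM+ libraries for Cd40 (1.44 CPM). These values come from the same libraries and share their depth, so they are not independent of each other.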

How the results depend on the processing

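Against CD45+ cells all 10 members kept their direction and call in both comparisons under every alternative run. Between brush and EpCAM+ cells the count of 2 higher members was 0 with DESeq2, 0 with voom and 0 with only the 2 groups compared, which leaves only H2-Ab1 and Cd74 to test, and it ranged from 1 to 2 when single libraries were left out. With the replicate block it was 1, and Cd40 lost its call (adjusted p = 0.151), as did Traf5 (0.0614). The labels share only replicate numbers across groups: same-numbered libraries had correlations of -0.198 to 0.263 in their deviations from the group means, so they were not taken as pairs. No member was lower in any of these settings. Of the pathway genes, 1 rather than 2 was higher in brush than in CD45+ cells with only the 2 groups compared. Signs of uncalled members turned between brush and EpCAM+ cells: H2-Aa to 0.078 without the 3 libraries that stand apart, H2-Eb1 to -0.77 with voom and -0.52 with the replicate block, H2-Ob to -0.15 with the replicate block, and Ciita to -0.011 with RSEM expected counts. Leaving out single libraries gave ranges of -1.74 to 0.34 for H2-Aa, -1.08 to 0.50 for H2-Eb1, -1.02 to 0.12 for H2-DMa, -0.067 to 0.58 for H2-DMb1, -2.12 to 1.46 for H2-Ob, -0.84 to 0.48 for Cd74 and -0.041 to 0.69 for Ciita. The cause of these turns was not tested. Leaving out ribosomal RNA genes moved the median log2 fold change of all genes between brush and CD45+ cells from 0.05 to -0.12. Depth limits H2-Oa, H2-Ob, H2-DMa, Ciita and Cd40 outside CD45+ cells, where each rests on 50 counts or fewer per group.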
